A study of Mus musculus with 8 samples.

Results

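The cytosolic ribosomal protein genes, which encode the protein subunits of the ribosomes that translate nuclear messages, were followed in injured muscle of aged mice. A gene counted as a member if its symbol began with Rpl or Rps followed by a digit, or was Rplp0, Rplp1, Rplp2 or Rpsa. Ribosomal S6 kinases (6 symbols) and annotated pseudogenes (8 symbols) were left out. Of the 19752 genes with a probe set of their own on the array, 63 were members, and each was represented by its probe set of highest mean over the 8 arrays. The probe sets were selected on that mean, the measured value the rule uses, and the set had been proposed with earlier results of both comparisons known, so the counts of members below are descriptions. One member, Rpl39l, was too dim to be tested, which left 62, namely 37 of the large and 25 of the small subunit. A further 20 member symbols, among them Rpl3, Rpl11, Rpl22l1, Rpl36al, Rpl39 and Rps27, occurred only on probe sets shared with other symbols and have no value of their own here. Rps27a was not analysed here. Rps19bp1 fits the symbol rule although it encodes a protein that binds Rps19 and is not part of the ribosome, and RefSeq lists Rps4l as a transcribed pseudogene.

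A ribosome needs most of its subunit proteins in equal number, and cells make them from messages that usually begin with a run of pyrimidines, the terminal oligopyrimidine (TOP) motif. Through this motif the mTOR pathway adjusts how much of these messages is translated. Muscle fibres and the cells that enter an injured muscle depend on ribosome supply for growth, and some ribosomal protein genes have paralogs made mainly in muscle or testis.

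The tissue was whole tibialis anterior, a shin muscle, of male mice that the labels give as 99 weeks and the design text as 22 months old. A metal probe chilled in liquid nitrogen was held to the muscle for 8 s, and the muscle was taken at day 8. Treated mice received 2 ug of recombinant interleukin 33 (rIL-33), an alarmin cytokine, into the peritoneal cavity on the days before and after the injury. The other mice carry the treatment label PBS. Each group had 4 arrays (Affymetrix Mouse Gene 1.0 ST), with the genetic background given as C57BL/6 for replicates 1 and 2 and as WT for replicates 3 and 4. The design text calls all of the mice C57BL/6, and the sources used here do not give what separates the labels. Nor do they state that every array had its own mouse, and the p-values therefore reflect spread among samples that may be technical. Uninjured muscle was not analysed here.

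All values are log2 of probe set intensity. Correlations between arrays ran from 0.9645 to 0.9942 over the 14814 genes tested. The arrays differed by label at both ends of the scale: lower quartiles were 88.3 to 93.8 in intensity under the C57BL/6 label and 97.1 to 107.3 under the WT label, and upper quartiles were 569.5 to 590.4 and 511.6 to 560.2, while array medians lay between 222.6 and 232.2. Muscle fibre markers were bright on every array, with Tnnt3, fast troponin T, at 13.70 to 13.81 and Ckm, muscle creatine kinase, at 13.63 to 13.88. Cd79a, a B cell receptor subunit, lay near the bottom of the scale at 5.83 to 6.18. In whole muscle, fewer cells of a type and less RNA per cell cannot be told apart. Beside each difference stands its standard error (SE) from limma, and adjusted p-values (Benjamini-Hochberg, all genes tested) were read at a threshold of 0.05.

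Sequences around annotated start sites are shown because the TOP motif is the feature by which this gene family is usually recognised. Each window holds 15 bases before and 15 bases from the annotated start on, 5′ to 3′ on the transcript's strand, from RefSeq on GRCm38.p6, and capitals mark its longest run of C and T. Rpl27a (chr7:109519180-109519209, plus strand), Rpl7a (chr2:26910792-26910821, plus strand) and Rps27l (chr9:66946071-66946100, plus strand) were lower on the WT-labelled arrays. Rpl26 (chr11:68901551-68901580, plus strand) and Rps13 (chr7:116334176-116334205, minus strand) were lower too and lack a long run in this window. Rps6 (chr4:86857353-86857382, minus strand) and Rpl28 (chr7:4792950-4792979, plus strand) had higher means on the WT-labelled arrays, and Rpl3l (chr17:24727811-24727840, plus strand) is the muscle paralog.
Rpl27a: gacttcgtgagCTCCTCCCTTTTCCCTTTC
Rpl7a: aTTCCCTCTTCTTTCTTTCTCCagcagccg
Rps27l: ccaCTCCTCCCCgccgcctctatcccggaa
Rpl26: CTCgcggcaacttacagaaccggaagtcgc
Rps13: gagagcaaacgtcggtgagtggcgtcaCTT
Rps6: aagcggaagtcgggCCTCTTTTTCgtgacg
Rpl28: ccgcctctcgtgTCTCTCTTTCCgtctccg
Rpl3l: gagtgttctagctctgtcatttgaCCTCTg
The longest runs are 19 bases in Rpl27a, 21 in Rpl7a, 11 in Rpl28, 10 in Rps6, 9 in Rps27l, 5 in Rpl3l and 3 each in Rpl26 and Rps13. A run of at least 8 pyrimidines was searched anywhere in the window, as C or T in any order on the transcript's strand only. It occurred in a window of 18 of the 51 members with an entry, or 35.3%. The share over all 27025 genes with an entry was 13.9%, and over mitochondrial ribosomal protein genes it was 13.0% (9 of 69). Among members called lower on the WT-labelled arrays it was 3 of 11, or 27.3%, and among the other tested members 15 of 39, or 38.5%. Such a run is a match of letters near an annotated start. It can lie wholly before the start, as in Rps27l, and so need not be part of the message. Its absence says only that these letters are not in this window.

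Part of the ribosomal protein genes differed by genetic background label. On the 4 WT-labelled arrays 15 of the 62 members tested were lower at an adjusted p under 0.05 (limma), and 0 were higher. Over all genes tested, 3.67% were called lower and 1.7% higher, 5.37% in all. The median WT minus C57BL/6 difference of the members was -0.18 on the log2 scale, against -0.02 for all genes. Of the members 48 had the lower mean on the WT-labelled arrays, whereas 54.1% of all genes did. At an unadjusted p under 0.05 there were 33 members lower and 2 higher, where 2371 of the 14814 genes were lower and 2081 higher.

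**Figure D1:**
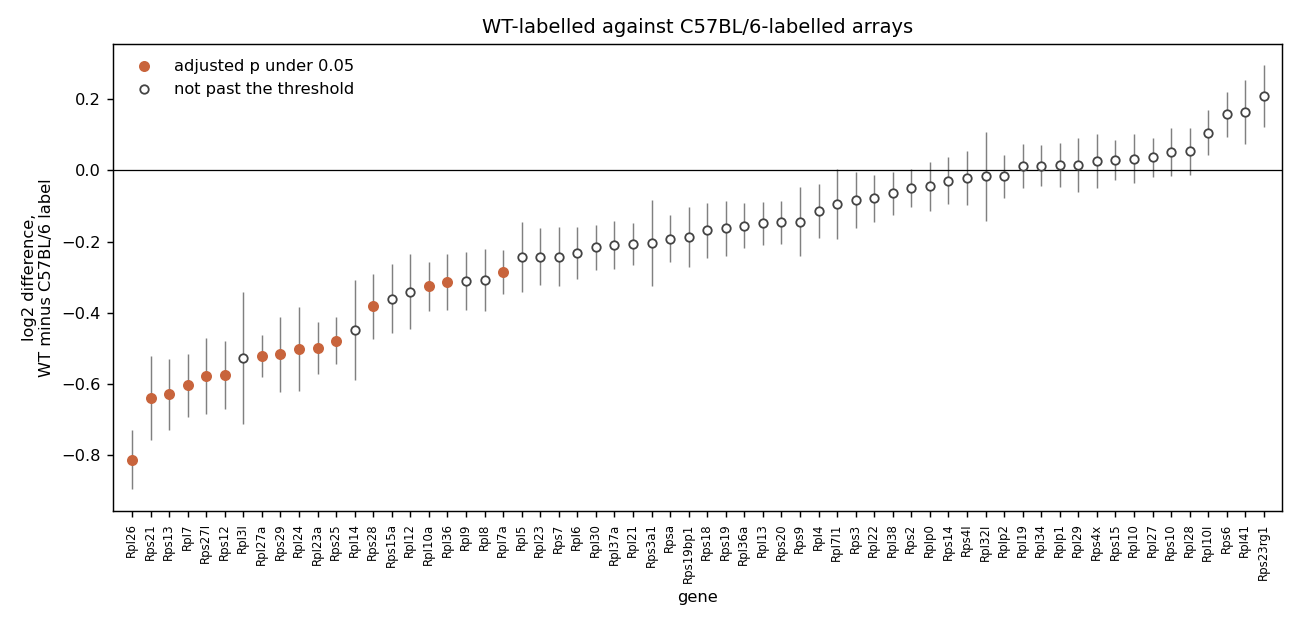
WT minus C57BL/6 difference in log2 intensity for each of the 62 members tested, in order of size, with the SE of the limma fit as bars (4 arrays per label). Filled points passed an adjusted p of 0.05, and all 15 of them lie below 0, from -0.81 for Rpl26 to -0.29 for Rpl7a.

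The lowest of the called members was Rpl26, a large subunit protein at the exit of the peptide tunnel and the ribosome's main site of modification by the ubiquitin-like protein Ufm1. Its log2 intensity was 10.41 and 10.15 on the C57BL/6-labelled PBS arrays, 10.12 and 10.11 on the C57BL/6-labelled rIL-33 arrays, 9.52 and 9.34 on the WT-labelled PBS arrays and 9.28 and 9.40 on the WT-labelled rIL-33 arrays. All WT-labelled arrays lay below all C57BL/6-labelled ones, with or without rIL-33. The difference was -0.81 (SE 0.08, adjusted p = 0.0086, limma), or 1.76-fold lower.

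Rpl27a, a large subunit protein whose partial loss causes the sooty foot ash phenotype of mice, varied little within each label. It read 11.31, 11.41, 11.37 and 11.41 on the C57BL/6-labelled arrays and 10.90, 10.82, 10.79 and 10.90 on the WT-labelled ones, in the order PBS, PBS, rIL-33, rIL-33 that is kept below for values by label. The labels did not overlap, and the treatments sat together within each. The difference was -0.52 (SE 0.06, adjusted p = 0.00952, limma).

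Among small subunit genes, Rps13, whose introns carry small nucleolar RNAs, read 10.14, 9.81, 9.87 and 9.72 on the C57BL/6-labelled arrays and 9.08, 9.25, 9.31 and 9.38 on the WT-labelled ones. The difference was -0.63 (SE 0.10, adjusted p = 0.0233, limma). Rps12, a protein of the beak of the small subunit, read 10.67, 10.33, 10.59 and 10.47 against 9.75 to 10.11, a difference of -0.57 (SE 0.10, adjusted p = 0.026, limma). In both genes PBS replicate 1 was the highest array and PBS replicate 3 the lowest, and the labels did not overlap.

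Rps29, a zinc-binding small subunit protein mutated in some families with Diamond-Blackfan anaemia, read 10.53, 10.31, 10.42 and 10.28 against 9.62, 9.77, 10.09 and 9.99, a difference of -0.52 (SE 0.11, adjusted p = 0.0362, limma). Rps21, another small subunit protein, read 9.21, 8.70, 8.95 and 8.77 against 8.09, 8.19, 8.40 and 8.39, a difference of -0.64 (SE 0.12, adjusted p = 0.0311, limma). The WT-labelled PBS arrays were the lowest in both. For Rps21 the value depended on the probe set: its other one-symbol probe set differed by -0.035, and the mean of its probe sets gave -0.34, no longer past the threshold.

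In the large subunit, Rpl7 read 11.07, 10.72, 10.76 and 10.68 against 10.16, 10.18, 10.20 and 10.27, a difference of -0.60 (SE 0.09, adjusted p = 0.0186, limma). Rpl23a, which sits at the tunnel exit where factors dock on the nascent chain, read 11.45, 11.20, 11.30 and 11.15 against 10.78, 10.79, 10.78 and 10.75, a difference of -0.50 (SE 0.07, adjusted p = 0.0186, limma). Rpl24, mutated in the belly spot and tail mouse, read 10.86, 10.51, 10.78 and 10.74 against a WT mean of 10.22 ± 0.23 (SD, n = 4) with its highest array at 10.49, a difference of -0.50 (SE 0.12, adjusted p = 0.0446, limma). The WT-labelled arrays were nearly level in Rpl7 and Rpl23a, whereas in Rpl24 the pair of rIL-33 arrays lay above the pair of PBS arrays, the higher one just under the lowest C57BL/6-labelled array.

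Rps27l, a paralog of Rps27 that p53 induces, was the only called member among the paralogs. It read 10.95, 10.60, 10.89 and 10.59 on the C57BL/6-labelled arrays and 10.01, 10.11, 10.35 and 10.25 on the WT-labelled ones. All of the latter lay below all of the former, by -0.58 on average (SE 0.11, adjusted p = 0.0311, limma). The remaining 5 called members were Rps25, needed for initiation at some viral messages (-0.48), Rps28 (-0.38), Rpl10a, a protein of the mobile stalk at the exit site (-0.33), Rpl36 (-0.31) and Rpl7a (-0.29). Rpl36, at an adjusted p of 0.0485, lay just inside the threshold of the limma test, and Rpl9 and Rps15a lay just outside it, with adjusted p of 0.0533 and 0.0557 for differences of -0.31 and -0.36.

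**Figure D2:**
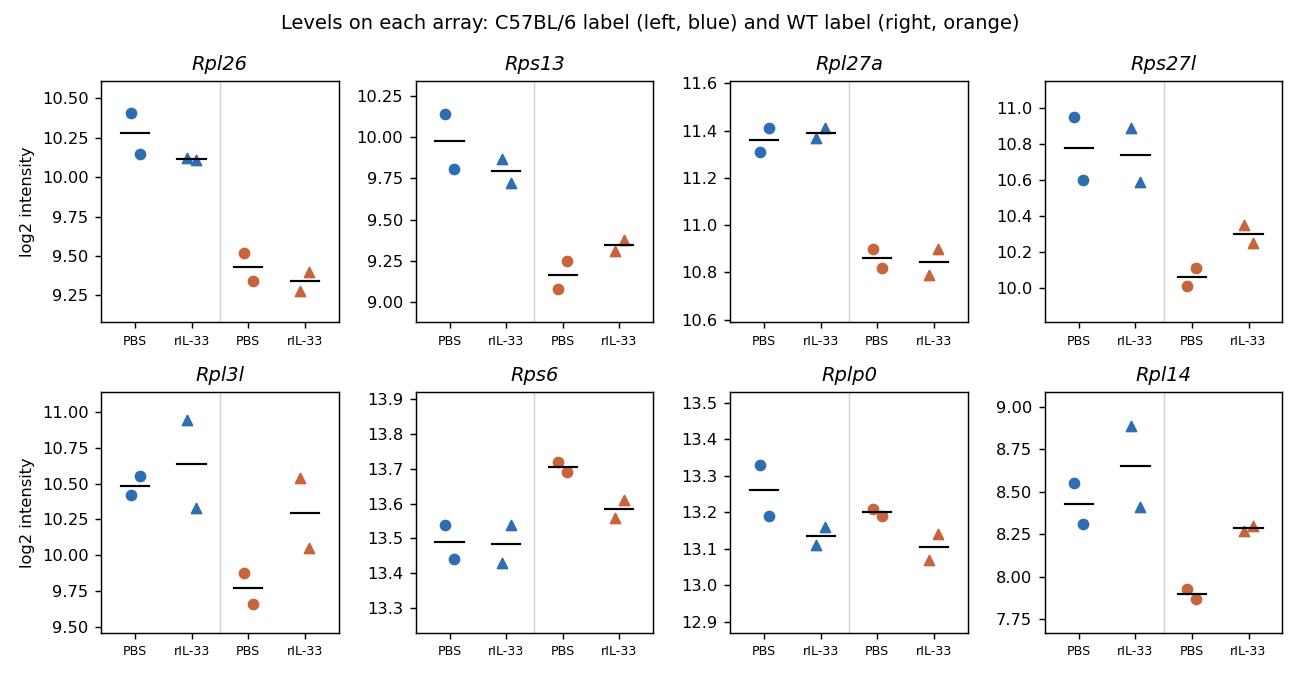
Log2 intensity of 8 members on each array, with PBS as circles and rIL-33 as triangles, the C57BL/6 label on the left in blue and the WT label on the right in orange, and bars at the mean of 2 arrays. Each panel has its own range of the vertical axis. Rpl26, Rps13, Rpl27a and Rps27l separate by label, Rps6 lies higher on the WT-labelled arrays, and Rplp0 shows no separation by label. Rpl14 lies lower on all WT-labelled arrays, by a narrow margin, and did not pass (-0.45, adjusted p = 0.0738, limma). In Rpl3l the labels overlap.

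Without regard to p, the WT-labelled arrays lay entirely below the C57BL/6-labelled ones in 30 members, where 11.1% of all genes did so. The same holds in the opposite direction for 1 member, Rps6, against 9.13% of all genes. Rps6, the small subunit protein that S6 kinases phosphorylate downstream of mTOR, read 13.54, 13.44, 13.43 and 13.54 on the C57BL/6-labelled arrays and 13.72, 13.69, 13.56 and 13.61 on the WT-labelled ones. Its WT-labelled arrays were the higher ones by a narrow margin, and the difference of 0.16 (SE 0.06, adjusted p = 0.132, limma) was not past the threshold. Its 8 probe sets all had the higher WT mean, by 0.06 to 0.16.

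Besides Rps6, the largest positive differences were 0.21 (SE 0.09) for Rps23rg1, a retrogene of Rps23, 0.16 (SE 0.09) for Rpl41, a very short basic protein at the bridge between the subunits, 0.11 (SE 0.06) for Rpl10l, the testis paralog of Rpl10, and 0.05 (SE 0.07) for Rpl28. None of these passed the threshold, and in all 4 the labels overlapped. PBS replicate 3 was the highest array in Rps23rg1, at 7.42, and in Rpl41, at 13.30.

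The stalk that recruits elongation factors to the large subunit is built of Rplp0, Rplp1 and Rplp2, and 0 of these 3 genes passed. Rplp0 read 13.33, 13.19, 13.11 and 13.16 on the C57BL/6-labelled arrays and 13.21, 13.19, 13.07 and 13.14 on the WT-labelled ones, a difference of -0.05 (SE 0.07). Rplp1 differed by 0.02 (SE 0.06) and Rplp2 by -0.02 (SE 0.06). The arrays of the labels were interleaved in all of them. Rplp1 changed sign when its probe sets were averaged, to -0.20, since its one-symbol probe sets ran from -0.42 to 0.02.

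Other members with known roles outside translation lay between these extremes. Rpsa, also known as a laminin receptor, was at 11.56, 11.34, 11.46 and 11.43 against 11.34, 11.25, 11.22 and 11.22, a difference of -0.19 (SE 0.07, adjusted p = 0.0912, limma). Its WT-labelled arrays were the lower ones, and PBS replicates 2 and 3 nearly touched. Rps19, the gene most often mutated in Diamond-Blackfan anaemia, differed by -0.16 (SE 0.08), and its binding partner Rps19bp1 by -0.19 (SE 0.08). Rpl5, which with Rpl11 and a small ribosomal RNA binds Mdm2 and so stabilises p53, differed by -0.24 (SE 0.10, adjusted p = 0.135, limma).

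The paralogs did not share 1 pattern. Rpl3l, the striated muscle form of Rpl3, read 10.42, 10.55, 10.94 and 10.33 on the C57BL/6-labelled arrays and 9.88, 9.66, 10.54 and 10.05 on the WT-labelled ones. The WT-labelled PBS arrays were the lowest, but rIL-33 replicate 3 lay among the C57BL/6-labelled arrays, and the difference of -0.53 (SE 0.18, adjusted p = 0.0947, limma) did not pass. Without that array it was -0.70 and passed. Differences for the ribosomal forms and their relatives were 0.03 for Rpl10 beside 0.11 for Rpl10l, -0.60 for Rpl7 beside -0.10 for Rpl7l1, and 0.03 for Rps4x beside -0.02 for Rps4l. Rpl22, a large subunit protein needed for T cell development, differed by -0.08, Rpl36a by -0.16 and Rpl32l by -0.02. Rpl39l, the untested relative of Rpl39, read 5.99 to 6.40, under the limit of 6.65 for testing. Leaving out the paralogs and Rps19bp1 gave 54 genes with a median of -0.20, of which 14 were called lower.

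By subunit, 8 of 37 large and 7 of 25 small subunit genes were called lower, with medians of -0.21 and -0.17. Within the PBS arrays the members' median difference was -0.21, with 47 of 62 lower on the WT-labelled arrays, and within the rIL-33 arrays it was -0.16, with 46 lower. In 42 members the WT mean was the lower one in both treatments. Over all genes the WT mean was the lower one in 55.3% within PBS, 51.0% within rIL-33 and 41.0% in both.

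**Figure D3:**
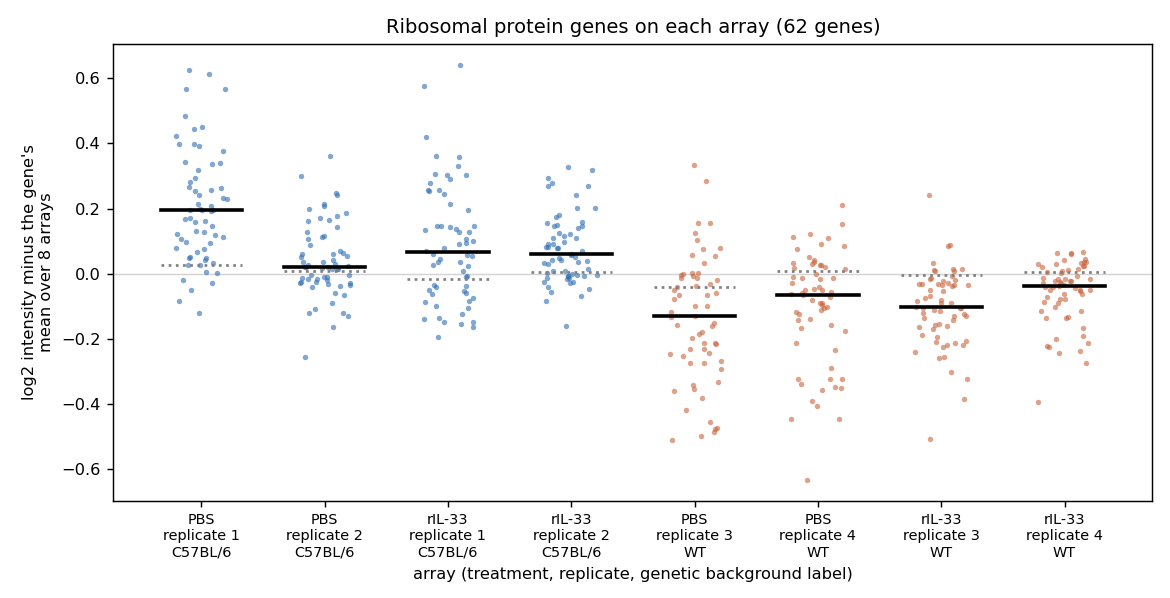
Log2 intensity of each of the 62 members on each array minus that gene's mean over the 8 arrays, with the members' median as a solid bar and the median of all genes tested as a dotted bar. The members' medians lie between 0.02 and 0.19 on the C57BL/6-labelled arrays and between -0.13 and -0.04 on the WT-labelled ones.

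Array by array, the members' median deviation from their own means was highest on PBS replicate 1, at 0.19, where 57 of the 62 lay above their mean. It was 0.02 on PBS replicate 2, 0.07 on rIL-33 replicate 1 and 0.06 on rIL-33 replicate 2, all with the C57BL/6 label. The WT-labelled arrays were at -0.13 for PBS replicate 3, -0.07 for PBS replicate 4, -0.10 for rIL-33 replicate 3 and -0.04 for rIL-33 replicate 4. The members' medians thus separated the arrays by label, while the medians of all genes stayed between -0.04 and 0.03. PBS replicate 1 was the highest array for 39 members, and PBS replicate 3 the lowest for 22. Without PBS replicate 1 the members' median difference between labels was -0.13, the smallest of the 8 values with an array left out.

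The calls depended on single arrays. Members called fell to 0 without PBS replicate 2, to 2 each without rIL-33 replicate 1, PBS replicate 3 or PBS replicate 4, to 6 without PBS replicate 1 and to 7 without rIL-33 replicate 2. Calls over all genes dropped in the same settings, from 796 to 0, to 14, 14 and 11, to 40 and to 126. All 15 kept the lower WT mean in each of these. Calls over all genes also moved with the scaling: quantile normalization of the arrays gave 107 genes in place of 796, split into 17 higher and 90 lower against 252 and 544, and 7 members called. With cyclic loess the split was 42 higher and 155 lower, and 9 members remained. The members' median was then -0.11 and -0.10.

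The difference between labels also varied with intensity. For all genes the median was 0.03 below a mean log2 intensity of 9 and -0.09 between 9 and 10. In 10 equal groups by intensity it fell from 0.17 in the dimmest (6.65 to 7.03) to -0.09 in the group at 9.21 to 9.69. In the brightest group it was -0.06. Members below 9 had a median of -0.19 (13 genes, 1 called), and those between 9 and 10 had -0.16 (5 genes, 2 called). Among the members, those between 10 and 11 had the lowest median, -0.50 (11 genes, 6 called), where all genes in that range had -0.08. Members between 11 and 12 had -0.23 (18 genes, 5 called), where all genes had -0.06.

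The 7 brightest members, at 13 or above, had a median of 0.03, with 0 called and a range of -0.21 to 0.16, beside -0.02 over the 72 genes of that range. They were Rpl10, Rpl21, Rpl28, Rpl41, Rplp0, Rps6 and Rps15. From 10 upward the order was the same after quantile normalization, with -0.43 between 10 and 11, -0.16 between 11 and 12 and 0.06 at 13 or above. Probe sets differ in their response, so these intensities do not rank the genes by message, and the part of array response in this pattern was not tested.

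**Figure D4:**
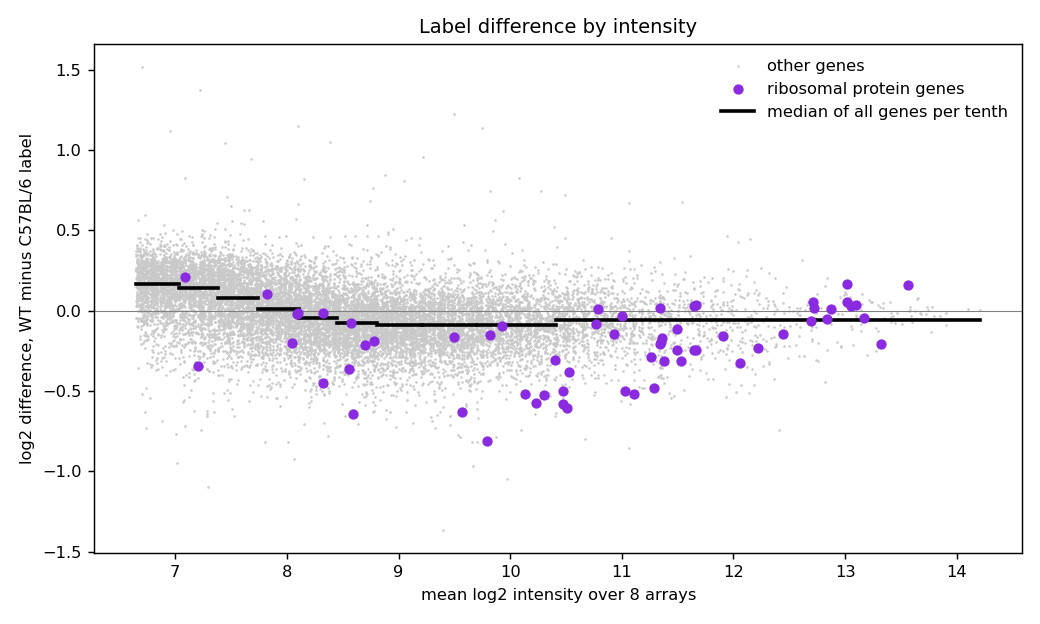
WT minus C57BL/6 difference in log2 intensity against mean log2 intensity over 8 arrays, with members as large points, all other genes tested as small points and medians of all genes in 10 equal groups by intensity as black bars. Members between 10 and 11 have the lowest median, -0.50, and the 7 members at 13 or above scatter around 0.

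Ribosomal protein genes are known to have many processed copies in the genome, and probes can be shared with them, so single values are uncertain. The 63 members together had 207 one-symbol probe sets, of which 206, from the 62 tested members, lay above the limit for testing. Of these 206, 173 were lower on the WT-labelled arrays, with a median of -0.24. The 221 probe sets above the limit that carry a member symbol together with others had the same median, -0.24, with 211 lower. Over all genes tested, 54.1% had the lower WT mean. Many of these probe sets read the same gene: Rpl23a alone has 11 one-symbol ones, and 31 of the 222 shared ones carry the Rpl21 symbol. The counts are therefore not of independent readings. Of the 38 members with several one-symbol probe sets above the limit, 29 were lower in all of them and 5 had probe sets in both directions. The median range within a gene was 0.09, and the widest, 0.61, was that of Rps21.

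Markers of other cells also differed in mean by label. All 5 tested neutrophil markers had higher WT means, with a median of 0.48. The median was 0.74 within the PBS arrays and 0.19 within the rIL-33 arrays. Summed intensities here cover all listed genes with a value, also those too dim to be tested. For neutrophils the 10 genes summed to 902 to 961 on the C57BL/6-labelled and 993 to 2781 on the WT-labelled arrays. The highest sum on an rIL-33 array was 1107. All 5 tested B cell markers (median 0.25, 8 genes summed to 948 to 969 against 1012 to 1142) were higher too. So were 9 of 10 tested T cell markers (median 0.15, 11 genes summed to 1428 to 2802 against 1882 to 2583). Muscle fibre markers were lower in 14 of 15 (median -0.09, summed 158729 to 169832 against 142011 to 165164), and markers of regenerating fibres in 8 of 9 (median -0.25, summed 30923 to 38471 against 25641 to 34808). Macrophage markers split evenly, with 6 of 12 higher. Endothelial markers were lower in 7 of 10 (median -0.03), and markers of fibro-adipogenic progenitors in 5 of 9 (median -0.03). Of these markers Mylpf, a fast myosin light chain (-0.51), and the endothelial marker Kdr (-0.35) passed the test as lower. Blk, a B cell kinase (0.38), passed as higher. Blk was dim, with a mean of 6.49 under the C57BL/6 label, below the limit of 6.65 for testing, and 6.87 under the WT label. Among all genes with means of 6.65 to 7.03 the median difference was 0.17, so a higher WT mean is common at this level. After quantile normalization the lists of these genes held no call, and after cyclic loess the B cell and endothelial lists held none. After quantile normalization all 5 neutrophil, 4 of 5 B cell and 9 of 10 T cell markers were higher, and 12 of 15 muscle fibre markers lower. Intensities have no true zero, so no marker reads 0. The part of cell makeup in the members' difference was not tested.

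The other genes of protein synthesis showed which neighbours of the ribosome had the same sign. Fau, which encodes a small subunit protein fused to a ubiquitin-like protein, was the tested ribosomal protein gene outside the symbol rule, and at 12.43 against 12.09 it was lower on the WT-labelled arrays by -0.34 (SE 0.07, adjusted p = 0.0354, limma). Of 9 elongation factors 1 was called lower, Eef1b2, the exchange factor of the factor that delivers aminoacyl-tRNA (-0.36), and the list's median was -0.11. Other genes with TOP messages had a median of -0.08, with 4 of 16 called lower, namely Eef1b2, Eif3f (-0.35), Fau and Tpt1 (-0.28), an abundant growth-related protein. Of 34 initiation factors 3 were called lower, all of them subunits of the Eif3 complex, Eif3c (-0.24), Eif3f and Eif3i (-0.33), with a list median of -0.16.

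Factors that build ribosomes had a median of -0.11, and 5 of 79 were called lower, where 3.67% of all genes were. These were Pno1 (-0.47), which acts in small subunit assembly, Bccip (-0.47), Mrto4 (-0.45), which holds the place of Rplp0 during assembly, Nop58 (-0.40) and Nop10 (-0.39), core proteins of small nucleolar ribonucleoproteins. Of 15 genes of RNA polymerase I and its factors 1 was called lower, Taf1d (-0.29), at a list median of -0.13. In the mTOR pathway 2 of 26 were called lower, Rheb, the GTPase that activates mTOR (-0.34), and Sesn1, an inhibitor of the pathway (-0.33), at a median of -0.14. Of 13 genes of ribosome quality control 1 was called lower, Nufip1, a receptor for ribosome autophagy (-0.34), at a median of -0.12. Of 3 tested host genes of small nucleolar RNAs 0 were called, with Snhg5 at -0.33 and Snhg11 at 0.17. No gene in any of these lists was called higher. After quantile normalization the calls in these lists came down to 1 gene of ribosome biogenesis, and after cyclic loess to 2 of the other TOP genes, 1 initiation factor and 1 biogenesis factor. The list medians stayed below 0 under both.

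The mitochondrial ribosomal proteins, which belong to the separate ribosome of mitochondria, had a lower median than the cytosolic ones, -0.32, with 76 of 77 lower and 31 called. The lowest were Mrps36 (-0.92), since assigned to the alpha-ketoglutarate dehydrogenase complex, Mrps17 (-0.66), Mrpl18 (-0.61), Mrpl54 (-0.60) and Mrpl13 (-0.59). Their calls dropped to 3 after quantile and 6 after cyclic loess normalization, with medians of -0.24 under both, while the cytosolic members kept the 7 and 9 calls given above. The difference between the lists was not tested.

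**Figure D5:**
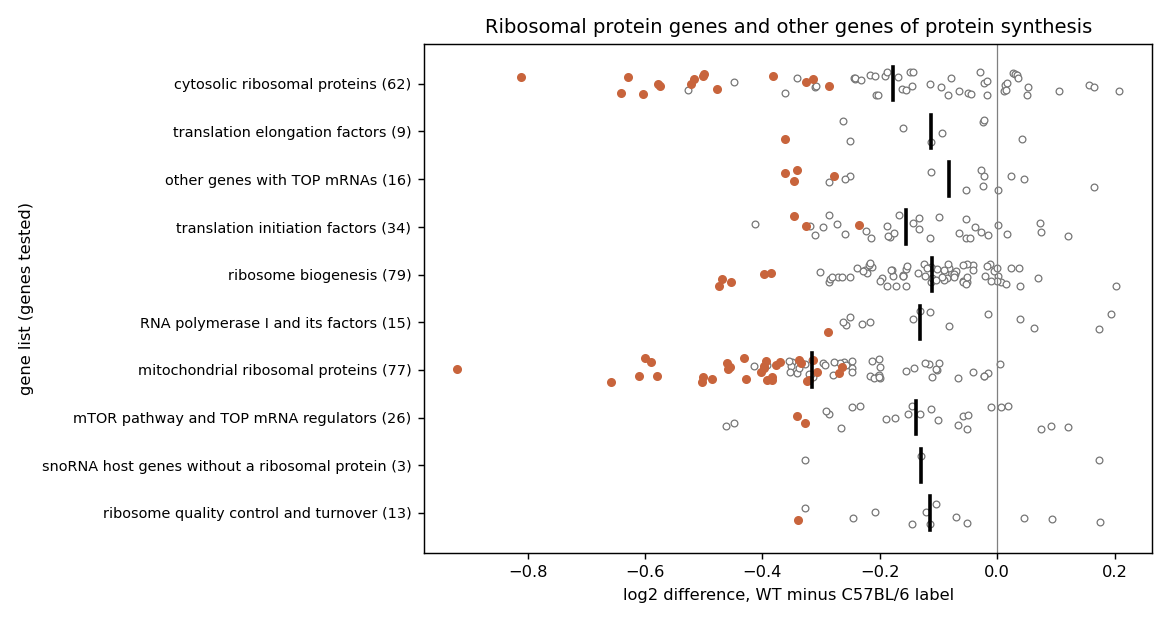
WT minus C57BL/6 difference in log2 intensity for each tested gene of the cytosolic ribosomal proteins and of other lists of protein synthesis, with filled points for an adjusted p under 0.05 and a black bar at the list's median. The 10 medians plotted lie below 0, from -0.32 for mitochondrial ribosomal proteins to -0.08 for other genes with TOP messages.

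Between rIL-33 and PBS no ribosomal protein gene passed the test. Of the 62 members 0 passed an adjusted p of 0.05 (limma) in either direction, where 0.00675% of all genes, 1 of 14814, passed. At an unadjusted p under 0.05 the members also numbered 0, while 651 genes were higher and 776 lower over the whole table. The members' median rIL-33 minus PBS difference was -0.03, beside -0.01 for all genes, with 27 members above 0 and 35 below. Single differences ran from -0.19 to 0.34, and the smallest adjusted p among members was 0.522. The median SD of a member within a treatment group was 0.15, and within treatment and label 0.09.

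The largest positive difference was that of the muscle paralog Rpl3l, 0.34 (SE 0.22, adjusted p = 0.642, limma). From the values above, its rIL-33 replicate 1 was the highest of the 8 arrays, and the treatments overlapped. Rpl14, a large subunit protein, read 8.55, 8.31, 7.93 and 7.87 on the PBS arrays and 8.89, 8.41, 8.27 and 8.30 on the rIL-33 arrays, in the order of replicates 1 to 4, a difference of 0.30 (SE 0.18). Rpl5 read 11.58, 11.36, 11.21 and 11.33 against 11.73, 11.75, 11.40 and 11.52, a difference of 0.23 (SE 0.11), the one behind the smallest adjusted p. In both, the rIL-33 mean was the higher one under each label, but the treatment groups overlapped. Rpl24 differed by 0.23 (SE 0.19) and Rps28 by 0.21 (SE 0.14).

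At the other end, Rpl32l differed by -0.19 (SE 0.11), Rps19bp1 by -0.17 (SE 0.09), Rpl29, which also binds heparin, by -0.14 (SE 0.07), Rpl26 by -0.13 (SE 0.27) and Rps23rg1 by -0.12 (SE 0.11). All 4 rIL-33 arrays lay below all 4 PBS arrays in 3 members, where 2.13% of all genes did so, and the opposite occurred in 0 members, against 2.44%. These 3 were Rpl28, Rpl29 and Rplp0, named here after their values were seen. Rpl29 read 11.43, 11.37, 11.50 and 11.37 with PBS and 11.24, 11.32, 11.20 and 11.35 with rIL-33. Rplp0 was at 13.33, 13.19, 13.21 and 13.19 with PBS, and rIL-33 arrays were at 13.11, 13.16, 13.07 and 13.14, a difference of -0.11 (SE 0.07). The gaps between the groups were narrow in both, and neither gene passed the test.

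The other members of known role gave these differences between treatments. Rps6 differed by -0.06, Rpsa by -0.04, Rps19 by -0.09, Rplp1 by 0.05 and Rplp2 by -0.04. Rpl10 and Rpl10l differed by -0.08 and -0.03, Rps4x and Rps4l by -0.12 and -0.11, Rpl22 by 0.01, and Rpl7 and Rpl7l1 by -0.06 and -0.10. Rps27l differed by 0.10 (SE 0.21) and Rpl36a by -0.03. For members lying apart by label, such as Rpl26 and Rps27l, the SE of the treatment difference holds that spread. With the label as a block 0 members passed too, and the members at an unadjusted p under 0.05 were 4 higher and 1 lower, where 7.9% and 7.2% of all genes were.

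Markers of several cell types had lower means with rIL-33 while the members' median stayed near 0. Sums again cover all listed genes with a value, which were 17 for mitosis and 11 for T cells. Of the mitosis genes 16 of 16 were lower (median -0.39, summed intensity 6042 to 7971 with PBS and 4441 to 6844 with rIL-33), of the macrophage markers 11 of 12 (median -0.25, summed 20270 to 23760 and 15554 to 21293), of the T cell markers 10 of 10 (median -0.32, summed 1701 to 2802 and 1428 to 1888) and of the markers of fibro-adipogenic progenitors 9 of 9 (median -0.36, summed 27977 to 31861 and 20286 to 25014). Neutrophil markers were lower in 5 of 5 (median -0.45), endothelial ones in 9 of 10 (median -0.13) and B cell ones in 5 of 5 (median -0.05). Markers of regenerating fibres were lower in 9 of 9 (median -0.08). Muscle fibre markers were higher in 14 of 15 (median 0.10, summed 142011 to 163431 and 154359 to 169832). Over all genes tested, 48.0% had the higher mean with rIL-33. None of these marker genes passed the adjusted threshold, and their part in the members' values was not tested.

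Of the other genes of protein synthesis, 0 passed between treatments. Mitochondrial ribosomal protein genes had a positive difference in 64 of 77, with a median of 0.08. Their median was -0.01 on the C57BL/6-labelled and 0.17 on the WT-labelled arrays, and 42 of 77 had opposite signs under the labels. Mrpl47 had the largest at 0.48 (SE 0.13). The medians were 0.05 for ribosome biogenesis, with Dkc1, a pseudouridine synthase, at 0.25 and Imp4 at -0.20, 0.04 for initiation factors, with the helicase Eif4a2 at 0.30 (SE 0.08), and 0.04 for elongation factors, with Eef2k, the kinase that inhibits Eef2, at 0.34 (SE 0.09). The mTOR list had 0.07, with Rragd, a GTPase that brings mTOR to the lysosome, at 0.46 (SE 0.16). Their adjusted p was 0.489 (limma) in each of the largest cases, Mrpl47, Rragd, Eef2k, Eif4a2, Dkc1 and Imp4.

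The treatment difference was compared between the labels with an interaction term, which the choice of members did not use. Of the 14814 genes 0 passed the adjusted threshold (0.0%), and the smallest adjusted p among members was 0.999 (limma). On simulated data this fit recovered 3 of 50 genes at an interaction of 0.5 and 30 of 50 at 1.0. The absence of calls therefore says little about interactions of 0.5 or less. At an unadjusted p under 0.05 there were 2 members, beside 3.18% of all genes. The members' median interaction was 0.07, against 0.02 for all genes, and the treatment difference had opposite signs under the labels in 25 of the 62, or 40.3%, and in 36.9% of all genes.

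The 2 members were Rps29 and Rpl12. For Rps29, with the values given above, rIL-33 minus PBS was -0.07 on the C57BL/6-labelled and 0.35 on the WT-labelled arrays, an interaction of 0.41 (SE 0.16). Rpl12, a large subunit protein at the base of the stalk, read 7.65, 7.31, 6.84 and 6.99 with PBS and, on the rIL-33 arrays, 7.28, 7.24, 7.16 and 7.12. Its PBS arrays separated by label more widely than its rIL-33 arrays, and rIL-33 minus PBS was -0.22 on the C57BL/6-labelled and 0.23 on the WT-labelled arrays, an interaction of 0.45 (SE 0.17). Both had an adjusted p of 0.999 (limma) and are named after their values were seen.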

How the data were processed

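For the probe set intensities of the 8 arrays the submitters' processing notes name RMA, which corrects background, equalises array distributions and summarises probes, and Affymetrix Power Tools. The sources used here give no versions. The intensities deposited by the authors are linear, and log2 was taken here. Of 24922 probe sets, 21425 had 1 symbol in the platform annotation, 1399 several and 2098 none, and only the first kind was used, with the probe set of highest mean per gene. A filter at the 25th percentile of gene means (6.65) left 14814 genes. The test between groups of 4 arrays was limma 3.58.1 (lmFit, eBayes; R 4.3.3), with no block. The script was tested on simulated data. Arrays give no read depth, and their number limits the precision.

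The members and gene lists were chosen with earlier results of these data known. Members named were those past the threshold (up to 10 per direction), the 5 largest differences per direction and comparison, and a fixed list of members of known interest; from each other list, up to 5 genes past the threshold or else the 2 of largest difference. Both comparisons use the same 8 arrays. Alternatives were quantile and cyclic loess normalization, other dim filters, trend and robust eBayes, array weights, averaged probe sets, blocks, subsets of arrays and each array left out. Start windows are from RefSeq (GRCm38.p6). Python 3.11.15 and matplotlib 3.10.9 drew the figures.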

Additional observations from a re-analysis of the deposited data

Results flagged for a closer look

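A single distant array was looked for in 136 groups of 4 arrays, namely PBS, rIL-33, C57BL/6 and WT for each of 33 named members and for the members' median deviation, and 5 held one, and chance alone gives about 1 in 20. Rpl22 on PBS replicate 1 was at 8.69 while the other PBS arrays lay between 8.51 and 8.53, and on rIL-33 replicate 1 it was at 8.71 while the other rIL-33 arrays lay between 8.52 and 8.54. Rpl26 on PBS replicate 1 was at 10.41, above the other C57BL/6-labelled arrays at 10.11 to 10.15. Rplp0 on PBS replicate 1 was at 13.33, above the other PBS arrays at 13.19 to 13.21. Rps4l on rIL-33 replicate 4 was at 8.12, with the other rIL-33 arrays all at 8.01.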

How the results depend on the processing

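No alternative reversed the sign of the label difference in any of the 15 members called. Between treatments, genes past the threshold numbered 1, and 0 with the replicate block, 2 on the C57BL/6-labelled arrays alone, 4 on the WT-labelled arrays alone and 1 to 2 with an array left out, while members called stayed at 0. Same-numbered arrays of PBS and rIL-33 correlated at 0.44, -0.186, 0.426 and 0.542 in their deviations from treatment means. These deviations still hold the label difference, and numbers are nested in the label. The correlations therefore cannot show whether the numbers mark pairs. In the fit reported the numbers were not treated as pairs. Without rIL-33 replicate 3 or PBS replicate 1 the members' median treatment difference was 0.02 and 0.04, and otherwise with an array left out it lay between -0.06 and -0.01. Between labels, 796 genes passed, and 107 after quantile and 197 after cyclic loess normalization, 459 with the 50th percentile filter, 893 with no dim filter, 1392 with treatment as a term, 35 on the PBS arrays alone, 0 on the rIL-33 arrays alone and 0 to 793 with an array left out. With no dim filter 43.2% of those called were higher, with the 50th percentile filter 7.4% and in the fit reported 31.7%. Members called were 15, and 7 after quantile and 9 after cyclic loess normalization, 0 on the PBS arrays alone and 0 on the rIL-33 arrays alone, each a test of 2 against 2, and 0 to 14 with an array left out. The members' median between labels was -0.10 after cyclic loess and -0.21 to -0.13 with an array left out. For the interaction 0 genes passed, and 0 to 8 with an array left out. Of single members named, 84 values between labels lost the threshold and 2 gained it (Rpl14 with treatment as a term, Rpl3l without rIL-33 replicate 3). The cause was not tested.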
